A study of Mus musculus with 4 samples.

Results

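Th2-like T cells were defined as single cells that carried T cell transcripts together with at least 1 transcript of a type 2 gene. A cell entered the class if it had between 200 and 7000 detected genes, at most 5% of its unique molecular identifiers (UMIs, each standing for 1 captured transcript) on mitochondrial genes, and at least 1 UMI of the CD3 chains Cd3d, Cd3e or Cd3g. It had no UMI of Cd8a, Cd8b1, Foxp3, Klrb1c, Zbtb16 or Tnfsf8, and at least 1 UMI of Il1rl1, Il17rb, Il4, Il5 or Il13. A Cd4 UMI was not required. The rule found 128 cells among 4157 T cells and 4801 deposited cells. The class was chosen by measured values, so the levels of the 5 type 2 genes are given as a description.

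Th2 cells are the helper T cells of type 2 immunity, which is directed at parasites and takes part in allergy and tissue repair. The transcription factor GATA3 sets their program, and they make the cytokines IL-4, IL-5 and IL-13, whose genes lie close together in 1 cluster. In tissues such cells can respond to alarm signals from damaged barrier cells, namely IL-33, through the receptor ST2 encoded by Il1rl1, and IL-25, through a receptor that contains the product of Il17rb. The meninges, the membranes around the brain, and the choroid plexus, which makes cerebrospinal fluid, hold resident T cells, and IL-4 and IL-13 are known to act on cells of these borders.

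From meninges and choroid plexus of female C57BL/6 mice, T cells with CD4 or CD8 on their surface were sorted by flow cytometry, and transcripts were counted from their 5′ ends in droplets. Young mice were 10 weeks old and aged mice 18 months old. Tissue of 5 mice was pooled for each of the 4 libraries, so there was 1 library per age and tissue and no genetic or drug treatment. Meninges held 22 Th2-like cells in young and 44 in aged mice, and choroid plexus held 7 and 55. Their median UMI numbers per cell were 3700 in young meninges, 3256 in young choroid plexus, and 2880 and 3442 in the same tissues of aged mice. Lists of 4 values follow this order of libraries. With 1 library per condition, the ages could not be tested within a tissue. All intervals below are 95% exact intervals (Clopper-Pearson for shares, Poisson for summed UMIs), and they cover counting error only, not the variation between mice.

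Th2-like cells took a larger share of the non-CD8 T cells in the aged libraries than in the young ones. The non-CD8 T cells were the cells that met every part of the rule except the type 2 UMI. In young meninges the share was 3.56% (2.24 to 5.34%, 22 of 618 cells) and in young choroid plexus 1.84% (0.742 to 3.75%, 7 of 381). In aged meninges it was 5.85% (4.28 to 7.78%, 44 of 752) and in aged choroid plexus 13.6% (10.4 to 17.3%, 55 of 404). The intervals of the young and aged choroid plexus did not overlap, whereas those of the young and aged meninges did. Aged choroid plexus lay above the other 3 libraries, with no overlap of intervals. Of all T cells the shares were 2.15, 1.12, 3.13 and 5.005%, and here the intervals of aged meninges (2.28 to 4.17%) and aged choroid plexus (3.79 to 6.46%) overlapped. When a Cd4 UMI was required of members and pool, the shares were 4.44, 2.01, 4.82 and 14.8%, so that young and aged meninges were close together. Of all T cells, Cd4-positive members were then 0.978% in young and 0.781% in aged meninges. Because a type 2 UMI can come from free RNA, the same 5 genes were counted in CD8 T cells of the same libraries, which should largely lack them.

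CD8 T cells were those with a Cd8a or Cd8b1 UMI and no Cd4 UMI. Among them 0.385% (1 of 260), 0% (0 of 167), 2.14% (6 of 281) and 2.73% (13 of 476) had a UMI of the 5 genes. The 0 of 167 allowed a share of up to 2.18%. Among all T cells with a Cd8b1 UMI, whether or not they had Cd4, it was 0.376, 0, 2.49 and 4.55%. This background was also higher in the aged libraries. Its interval overlapped with that of the Th2-like share in young choroid plexus and in aged meninges (0.788 to 4.59% against 4.28 to 7.78%), and lay below it in young meninges and aged choroid plexus. Median UMI numbers of the CD8 T cells were 3664.5, 3460, 2811 and 3124.5. When every cell was thinned to 1000 UMIs, which also lets some cells pass the exclusion genes, the Th2-like shares were 1.24, 0.460, 3.11 and 5.95%, against 0.529, 0, 0.465 and 0.806% in CD8 T cells. The order of the 4 libraries was the same after thinning, and the intervals of Th2-like and CD8 shares then overlapped in all libraries except aged choroid plexus. The Th2-like intervals of aged meninges (2.07 to 4.46%) and aged choroid plexus (4.13 to 8.25%) also overlapped after thinning.

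**Figure D1:**
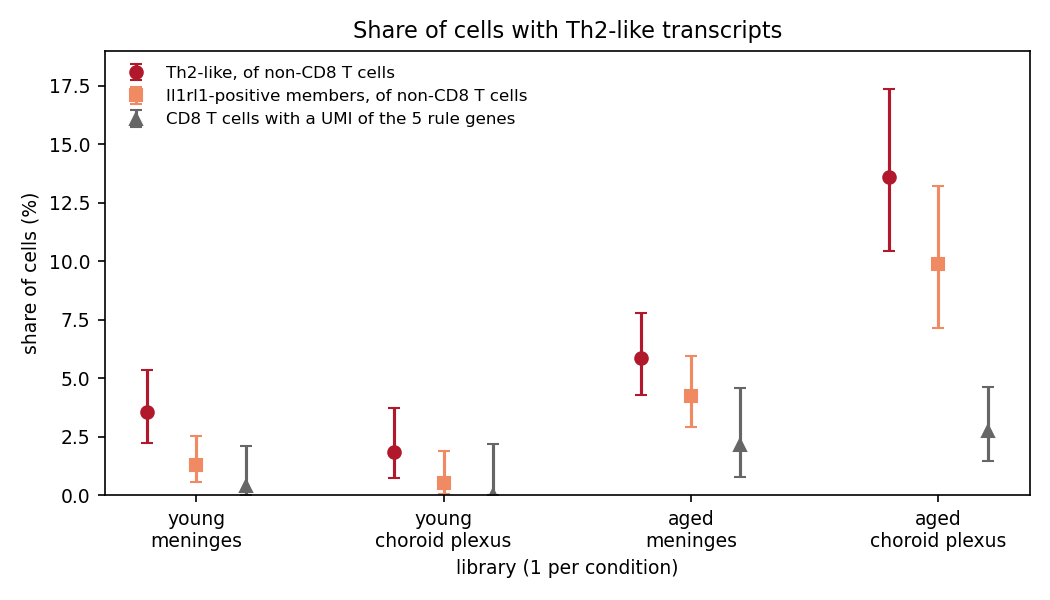
Share of cells in percent (vertical axis) in each of the 4 libraries (horizontal axis). Shown are Th2-like cells and Il1rl1-positive Th2-like cells, both among non-CD8 T cells, and CD8 T cells with a UMI of the 5 rule genes. Bars are 95% exact intervals over cells. Aged choroid plexus stands highest at 13.6%, and the CD8 background lies between 0 and 2.73%.

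The rule genes did not mark the same cells in young and aged libraries. Il1rl1 (chr1:40429570-40465415, plus strand), which encodes the IL-33 receptor ST2, was detected in 8 of 22, 2 of 7, 32 of 44 and 40 of 55 Th2-like cells. A cytokine UMI (Il4, Il5 or Il13) was found in 17 of 22, 5 of 7, 14 of 44 and 22 of 55. Thus most young cells were chosen by a cytokine and most aged cells by Il1rl1. Cells with Il1rl1 and no cytokine were 2 of 22 and 1 of 7 in the young libraries, and 30 of 44 and 30 of 55 in the aged libraries. Cells with a cytokine and no Il1rl1 were 11 of 22, 4 of 7, 12 of 44 and 12 of 55. The remainder carried both, or Il17rb alone.

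Il4 (chr11:53602982-53618669, minus strand), the cytokine that drives Th2 differentiation, was the most widely detected cytokine, in 13, 5, 13 and 19 cells. Its summed level was 281, 408, 151 and 111 counts per 1000000 UMIs (CPM). Il5 (chr11:53720794-53725106, plus strand), the growth factor of eosinophils, was found in 5, 0, 1 and 5 cells. Il13 (chr11:53631324-53634702, minus strand), which acts on epithelium and macrophages, was found in 2, 0, 2 and 1 cells. The Il13 level of 222 CPM in young meninges rested on 19 UMIs in 2 cells. Il17rb (chr14:29996135-30008896, minus strand) was found in 3, 1, 3 and 8 cells. Il1rl1 reached 164, 62.8, 362 and 309 CPM. Other cytokines that Th2 cells can make, namely Il9, Il10, Il3 and Il31, had no UMI in any Th2-like cell, and Ptgdr2, the prostaglandin receptor CRTH2 often used to mark Th2 cells, had none either.

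**Figure D2:**
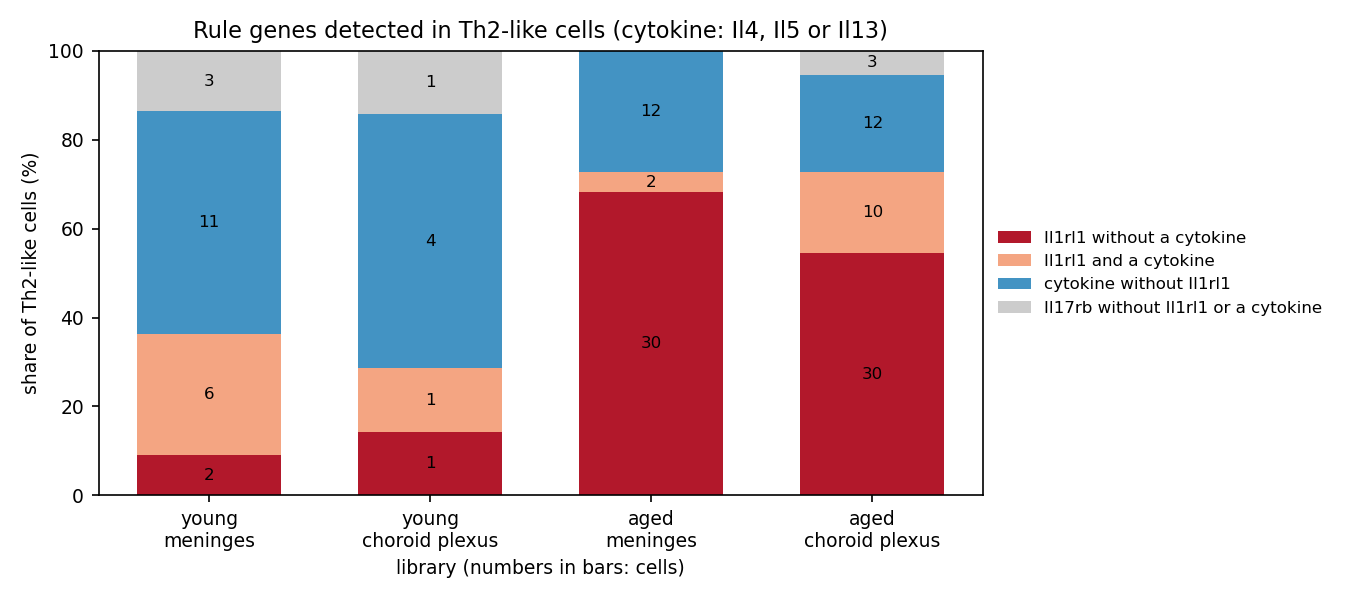
Share of Th2-like cells in percent (vertical axis) in each library (horizontal axis), split by which rule gene was detected, with the number of cells written in the bars. Cells with Il1rl1 and no cytokine make up 30 of 44 cells in aged meninges and 30 of 55 in aged choroid plexus, against 2 of 22 and 1 of 7 in the young libraries.

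Most members passed the threshold of 1 UMI by the smallest margin. Exactly 1 UMI of the 5 genes was present in 13 of 22, 3 of 7, 26 of 44 and 36 of 55 cells. Gata3 was at 33.3, 41.0, 76.3 and 79.6 CPM in the cells just outside, with 0 such UMIs. It was at 100, 143, 191 and 202 CPM in the cells just inside, with 1 UMI, and at 225, 161, 220 and 248 CPM in cells with 2 or more. T cells that the exclusion genes removed also held type 2 UMIs. They were found in 18 of 405, 1 of 246, 39 of 656 and 40 of 695 removed T cells, and in 15.2, 8.33, 13.5 and 19.4% of the cells with a Foxp3 UMI. In meninges the shares were higher among cells with a UMI of the natural killer T cell factor Zbtb16, 6 of 16 in young and 3 of 7 in aged mice, and among cells with Klrb1c, 7 of 37 and 4 of 13. In choroid plexus no cell with either gene had a type 2 UMI (0 of 8 and 0 of 10 with Klrb1c, 0 of 1 and 0 of 3 with Zbtb16).

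The promoter of Il1rl1 and those of Il13 and Ccr2, the last a chemokine receptor gene described further on, are shown because their genes define or mark the class and GATA3 is a DNA-binding factor. They are RefSeq sequences of build GRCm38.p6, from 250 bases before to 50 bases after an annotated start, with the GATA-type letters AGATAA or AGATAG or TGATAA or TGATAG, on either strand, in capitals. The 5′ promoter of Il1rl1 (chr1:40429320-40429619, plus strand) held 5 matches, that of Il13 (chr11:53634653-53634952, minus strand) 1, and that of Ccr2 (chr9:124101933-124102232, plus strand) 2.
Il1rl1: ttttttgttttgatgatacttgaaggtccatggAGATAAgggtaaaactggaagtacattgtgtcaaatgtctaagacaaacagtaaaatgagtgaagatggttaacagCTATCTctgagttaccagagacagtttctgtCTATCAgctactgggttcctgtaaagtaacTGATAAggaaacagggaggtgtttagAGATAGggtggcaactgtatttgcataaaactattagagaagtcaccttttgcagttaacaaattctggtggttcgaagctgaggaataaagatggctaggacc
Il13: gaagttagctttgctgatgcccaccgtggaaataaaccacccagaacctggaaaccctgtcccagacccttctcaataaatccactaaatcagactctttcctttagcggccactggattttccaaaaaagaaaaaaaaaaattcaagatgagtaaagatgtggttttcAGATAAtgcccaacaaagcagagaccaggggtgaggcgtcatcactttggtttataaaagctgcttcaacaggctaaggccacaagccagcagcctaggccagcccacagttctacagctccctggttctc
Ccr2: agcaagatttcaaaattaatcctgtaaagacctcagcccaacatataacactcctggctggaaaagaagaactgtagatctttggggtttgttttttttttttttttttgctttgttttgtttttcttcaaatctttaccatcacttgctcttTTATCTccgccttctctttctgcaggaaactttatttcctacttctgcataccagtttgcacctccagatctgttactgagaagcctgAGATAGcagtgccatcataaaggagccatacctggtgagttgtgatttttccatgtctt
Of all 32851 promoters of this length, 29.8% held at least 1 match and 18 (0.0548%) held 5 or more. Matches were found in 6 of 7 promoters of the 5 rule genes. Of 18 promoters of 13 genes among those named below as higher in Th2-like cells 5 held a match (27.8%), close to the share of all promoters. Rab4a, Fam213a, Fos and Ramp1, also named as higher, were not in this set. These matches are a description of the letters and do not show binding.

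The label was checked against markers outside the rule. Gata3 (chr2:9857078-9890034, minus strand) was detected in 10 of 22 Th2-like cells of young meninges and was higher in Th2-like cells than in other non-CD8 T cells in all 4 libraries. T cell receptor constant transcripts (Trac, Trbc1 or Trbc2) were found in 19 of 22, 7 of 7, 34 of 44 and 42 of 55 cells, that is 86.4, 100, 77.3 and 76.4%, and a Cd4 UMI in 10, 3, 11 and 22. Tmem176b, a gene linked to type 2 and type 17 lymphocytes, was at 11.7, 62.8, 83.0 and 126 CPM, against 15.6, 3.57, 113 and 112 CPM in other non-CD8 T cells. Its level was therefore not higher in Th2-like cells of the meninges in either age, and Tmem176b did not mark the class.

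In the young libraries the cells chosen by a cytokine without Il1rl1 stood apart from those with Il1rl1. These genes were looked at after their values were seen. In young meninges Xcl1, a chemokine of cytotoxic and innate-like lymphocytes, was detected in 10 of 11 cytokine-positive Il1rl1-negative cells and in 0 of 8 Il1rl1-positive cells. Ly6c2, a surface antigen of memory and innate-like T cells, was detected in 7 of 11 and 0 of 8, Cxcr3, a chemokine receptor of Th1 cells, in 8 of 11 and 0 of 8, and Nkg7, a cytotoxic granule gene, in 6 of 11 and 1 of 8. Gata3 had the opposite order, with 4 of 11 and 6 of 8 cells and 90.3 and 280 CPM. Ltb4r1, the leukotriene B4 receptor, was found in 1 of 11 and 4 of 8.

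In young choroid plexus all 4 cytokine-positive Il1rl1-negative cells had UMIs of Ly6c2, Nkg7 and Cxcr6 and 1 of them had a Gata3 UMI, whereas both Il1rl1-positive cells had Gata3 and neither had Ly6c2 or Nkg7. In the aged libraries Xcl1 was found in 1 of 12 and 0 of 12 cytokine-positive Il1rl1-negative cells, Ly6c2 in 1 of 12 and 1 of 12, and Nkg7 in 1 of 12 and 2 of 12. In young meninges the Gata3 level of cells with a cytokine and no Il1rl1 thus lay between that of Il1rl1-positive cells and the 33.3 CPM of other non-CD8 T cells. These counts rest on few cells and do not settle what the Il1rl1-negative cells are. Natural killer T cells can make IL-4, and their defining genes Klrb1c and Zbtb16 were at 0 by the rule. The part of such cells in the young class was not tested. Below, each comparison is also given for Il1rl1-positive members alone.

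**Figure D3:**
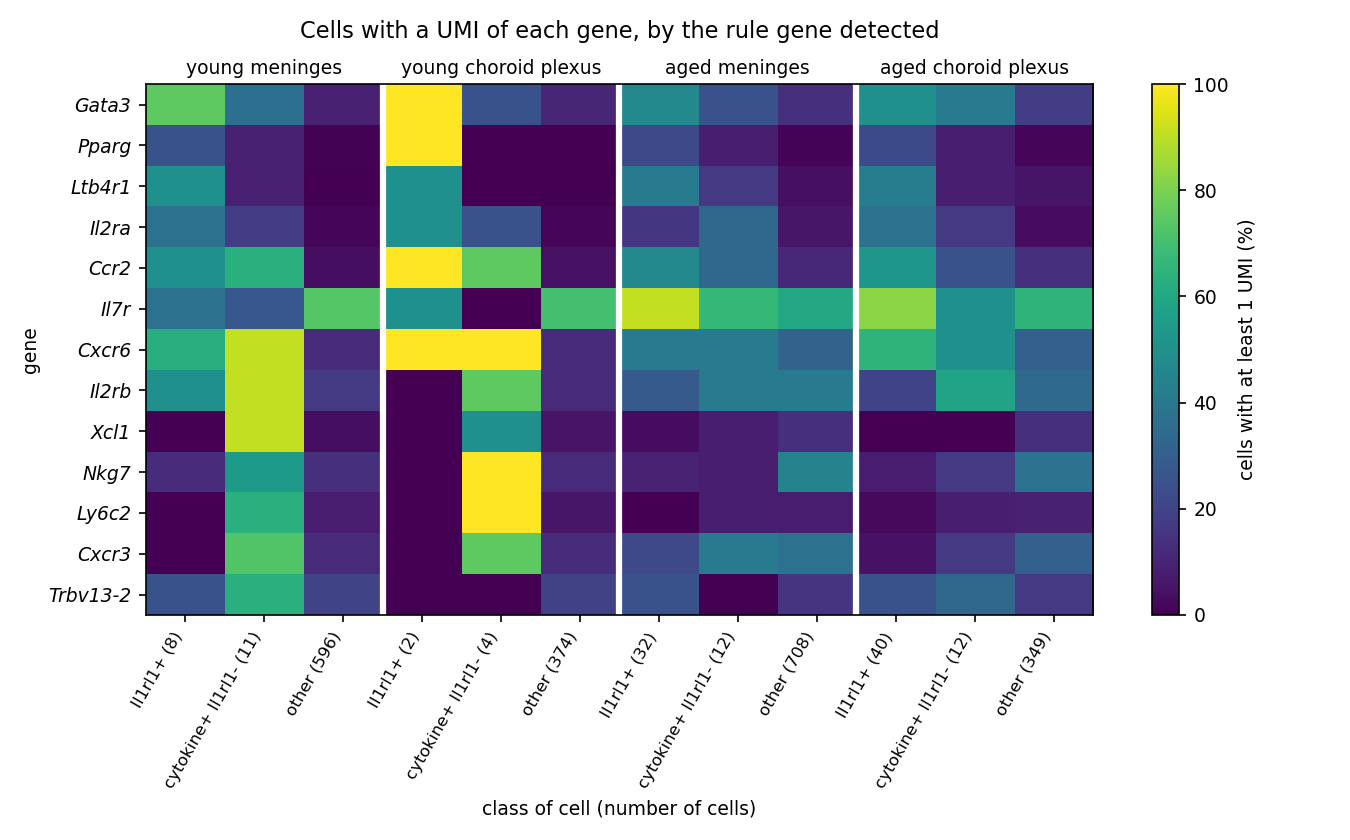
Percent of cells with at least 1 UMI (colour) of each gene (vertical axis) in Il1rl1-positive cells, in cytokine-positive Il1rl1-negative cells and in other non-CD8 T cells of each library (horizontal axis, cell numbers in parentheses). Xcl1, Ly6c2, Nkg7 and Cxcr3 are detected in most of the 11 cytokine-positive Il1rl1-negative cells of young meninges and in at most 1 of the 8 Il1rl1-positive cells.

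Markers of other cells were checked next. Kit, which group 2 innate lymphoid cells can express, had no UMI in any Th2-like cell, and Nmur1, a receptor of those cells, had none except in aged choroid plexus, in 1 cell. The summed innate lymphoid list (7 genes) was led by Areg in 3 of the 4 libraries and reached 58.5, 31.4, 1124 and 160 CPM. It had a UMI in 2 of 22, 1 of 7, 26 of 44 and 12 of 55 Th2-like cells, against 1.85, 1.07, 14.4 and 4.87% of other non-CD8 T cells, and the intervals of the classes did not overlap in the aged libraries. Klrg1, a receptor of innate lymphoid and effector T cells, was at 23.4, 0, 98.0 and 43.5 CPM against 10.2, 3.57, 22.4 and 7.74 CPM in other cells. Calca, the gene of calcitonin and its related peptide, was at 75.4 and 48.3 CPM in aged meninges and aged choroid plexus, from 3 cells and 1 cell, against 1.82 and 3.32 CPM in other cells, and had no UMI in young Th2-like cells. The cells had been sorted as T cells with surface CD4 or CD8, and the part of innate lymphoid cells in the class was not tested. Of 10 mast cell and basophil genes, 1 cell of aged meninges had a UMI, of Hdc. Fibroblast, natural killer cell and choroid plexus epithelium lists had no UMI in any Th2-like cell, and the macrophage list had UMIs in 2 cells, both of aged meninges. The regulatory list, without Foxp3 in these classes, had a UMI in 18 of 22, 4 of 7, 39 of 44 and 49 of 55 Th2-like cells, against 37.9, 34.0, 69.5 and 72.5% of other non-CD8 T cells, led by Tnfrsf18 in the young and Capg in the aged libraries. The part of regulatory cells without a Foxp3 UMI in the class was not tested. Ighm accounted for nearly all B cell list UMIs, which were found in 11 of 22, 2 of 7, 13 of 44 and 28 of 55 cells, and in 46.0, 45.2, 21.6 and 29.2% of other non-CD8 T cells. Haemoglobin transcripts were at 4057 CPM for Hbb-bs in aged meninges, from 538 UMIs in 2 of 44 cells. Libraries shared between 0 and 3 cell barcodes per pair, and 1 shared barcode belonged to a Th2-like cell.

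To find what distinguished Th2-like cells, their summed UMIs were compared with those of the other non-CD8 T cells of the same library (2027 cells). Gata3, Pparg, Ccr2, Il2ra and Areg were among the genes that were higher, and Ccl5, Ccl4, Gzmk and Ccr7 among those that were lower. The test was edgeR's quasi-likelihood test with the library as a block and Benjamini-Hochberg adjustment over 5742 genes. It used the 3 libraries with at least 10 cells in both classes, which left out young choroid plexus. It called 24 genes higher (0.418% of those tested) and 13 lower (0.226%) at an adjusted p under 0.05, and the median log2 fold change over all genes was -0.02. Here and below, log2 fold changes are Th2-like over comparator, with the SE of the fit.

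Gata3, the master regulator of the Th2 program, was at 152, 157, 204 and 222 CPM in Th2-like cells and at 33.3, 41.0, 76.3 and 79.6 CPM in other cells. The 4 libraries did not overlap between the classes, and the log2 fold change was 1.62 ± 0.22 (adjusted p = 0.00227). Pparg (chr6:115360951-115490399), a nuclear receptor active in tissue Th2 cells, was at 35.1, 94.2, 60.3 and 48.3 CPM against 2.15, 0.892, 3.63 and 5.53 CPM. It had the highest log2 fold change of the named genes, 3.65 ± 0.47 (adjusted p = 0.00151), from 24 UMIs in all. Of 11 Th2 transcription factors listed, 8 were tested, 2 rose (Gata3 and Pparg) and none fell, and their median was 0.29. Maf, an activator of Il4, had a log2 fold change of 0.08 and did not pass. It was at 129, 62.8, 181 and 131 CPM against 37.7, 23.2, 227 and 167 CPM, higher than in other cells in the young libraries and lower in the aged ones, and the difference between the ages did not pass (adjusted p = 0.129). That difference was tested with edgeR over 5622 genes with a class by age term, all 4 libraries and library as block, a test chosen after the data were seen.

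Several of the named genes encode receptors. Ccr2 (chr9:124101950-124113557), which draws cells into inflamed tissue, was at 234, 314, 211 and 213 CPM against 18.3, 24.1, 64.2 and 70.7 CPM. No library of one class overlapped with the other, and the log2 fold change was 2.13 ± 0.30 (adjusted p = 0.00258). This call was lost when every cell was thinned to 1000 UMIs and without the library block. The log2 fold change was at least 1.70 in every alternative. Ltb4r1 (chr14:55765962-55768494), the leukotriene B4 receptor, was at 187, 31.4, 189 and 160 CPM against 1.61, 0, 23.0 and 32.1 CPM, with a log2 fold change of 3.33 ± 0.47 (adjusted p = 0.00258). Its only Th2-like value inside the range of the other cells was that of young choroid plexus, from 1 UMI.

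Il2ra (chr2:11642807-11693193), the high-affinity chain of the IL-2 receptor, was at 129, 94.2, 75.4 and 126 CPM against 9.68, 9.81, 29.7 and 15.5 CPM (log2 fold change 2.56 ± 0.41, adjusted p = 0.0075). Il9r (chr11:32187541-32200279), the IL-9 receptor, was at 35.1, 0, 22.6 and 48.3 CPM against 2.69, 0, 4.24 and 5.53 CPM (3.01 ± 0.49, adjusted p = 0.0075). Of 11 type 2 receptor and prostanoid genes listed, 6 were tested, 2 rose (Il2ra and Il9r) and none fell, and all 6 estimates were above 0, with a median of 1.32. Il2ra is also a gene of regulatory T cells, and it was the only one of 8 tested regulatory genes to rise, while none fell and their median was 0.44. Ccr4, a chemokine receptor of Th2 cells, had a log2 fold change of 1.83 and did not pass (adjusted p = 0.0849).

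Among secreted factors, Areg (chr5:91139599-91148432), the tissue-repair growth factor amphiregulin, was at 35.1, 0, 950 and 62.8 CPM in Th2-like cells and at 7.53, 3.57, 213 and 14.4 CPM in other cells. Both classes were highest in aged meninges, and the log2 fold change was 2.18 ± 0.24 (adjusted p = 0.000616). Areg was 1 of 3 tested genes of a list of 12 type 2 effector genes, and neither of the other two passed. Cish, a feedback inhibitor that cytokines such as IL-2 and IL-4 induce through STAT5, was at 187, 188, 294 and 256 CPM against 33.9, 34.8, 148 and 117 CPM (1.37 ± 0.24, adjusted p = 0.0131). Klrg1 had a log2 fold change of 2.06 and did not pass (adjusted p = 0.0513). Cish was the only one of 10 tested IL-4 and IL-13 receptor and signalling genes to pass. None of 9 alarmin receptor chains and adaptors outside the rule passed.

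Of the 13 lower genes, 3 were in the Th1 and cytotoxic list, 2 in the follicular list and 1 in the naive list. Ccl5, a chemokine of effector and memory cells, was at 257, 62.8, 339 and 411 CPM against 850, 575, 5381 and 3510 CPM. Each Th2-like value lay below every value of the other cells, with a log2 fold change of -3.05 ± 0.30 (adjusted p = 0.000416). Gzmk, a granzyme of aged T cells, was at 0, 0, 37.7 and 0 CPM against 18.8, 6.24, 342 and 225 CPM, and the fold of such a gene depends on the prior count of the fit. Of 9 tested Th1 and cytotoxic genes 3 fell (Ccl5, Ccl4 and Gzmk), none rose, and the median was -1.58. Gzma, another granzyme, also fell. Ccr7, the lymph node homing receptor, was at 93.6, 0, 22.6 and 19.3 CPM against 654, 416, 72.6 and 66.3 CPM (log2 fold change -2.41 ± 0.33, adjusted p = 0.00227). It was the only naive gene of 12 tested to fall, although all 12 estimates were below 0 with a median of -1.15. Slamf6 and Sh2d1a, which act in follicular help, fell as well.

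Of 16 tested residency and activation genes 1 rose (Ccr2) and none fell, with a median of 0.22, and 12 estimates were above 0. Summed over the list of 18, their level was 5056, 5338, 6659 and 5584 CPM in Th2-like cells and 1927, 2138, 6421 and 6804 CPM in other cells. The sum was thus higher in Th2-like cells in both young libraries and close to that of other cells in the aged ones. Cxcr6, a receptor of tissue-resident T cells, was at 1205, 691, 226 and 319 CPM against 138, 120, 292 and 282 CPM. It was far higher in the young Th2-like cells and within the range of the other cells, or close to it, in the aged ones, and it did not pass (log2 fold change 1.01, adjusted p = 0.644). In the edgeR test of a class by age term its log2 ratio of Th2-like over other cells was lower in the aged libraries by a difference of -2.66 ± 0.34 (adjusted p = 1.25e-11). Tmem176a and Tmem176b did not pass either. Of 12 tested immediate early genes 1 rose, Fos, at 363, 0, 784 and 19.3 CPM against 139, 17.8, 273 and 16.6 CPM (log2 fold change 1.29). Fos was high in the meningeal libraries and near 0 in the choroid plexus in both classes. Further genes named as higher were Nav2, Kcnq5, Rab4a, Fam213a, Zcchc10, Fgl2, Ctla2a and Ramp1, and further genes named as lower were Cd7 and Txk. The last 2 did not pass in the edgeR fit of Il1rl1-positive members only, which held the 2 aged libraries (adjusted p = 0.0957 and 0.065). Their log2 fold changes were -1.96 and -2.28 there, and -2.18 and -1.94 with all members over 3 libraries.

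**Figure D4:**
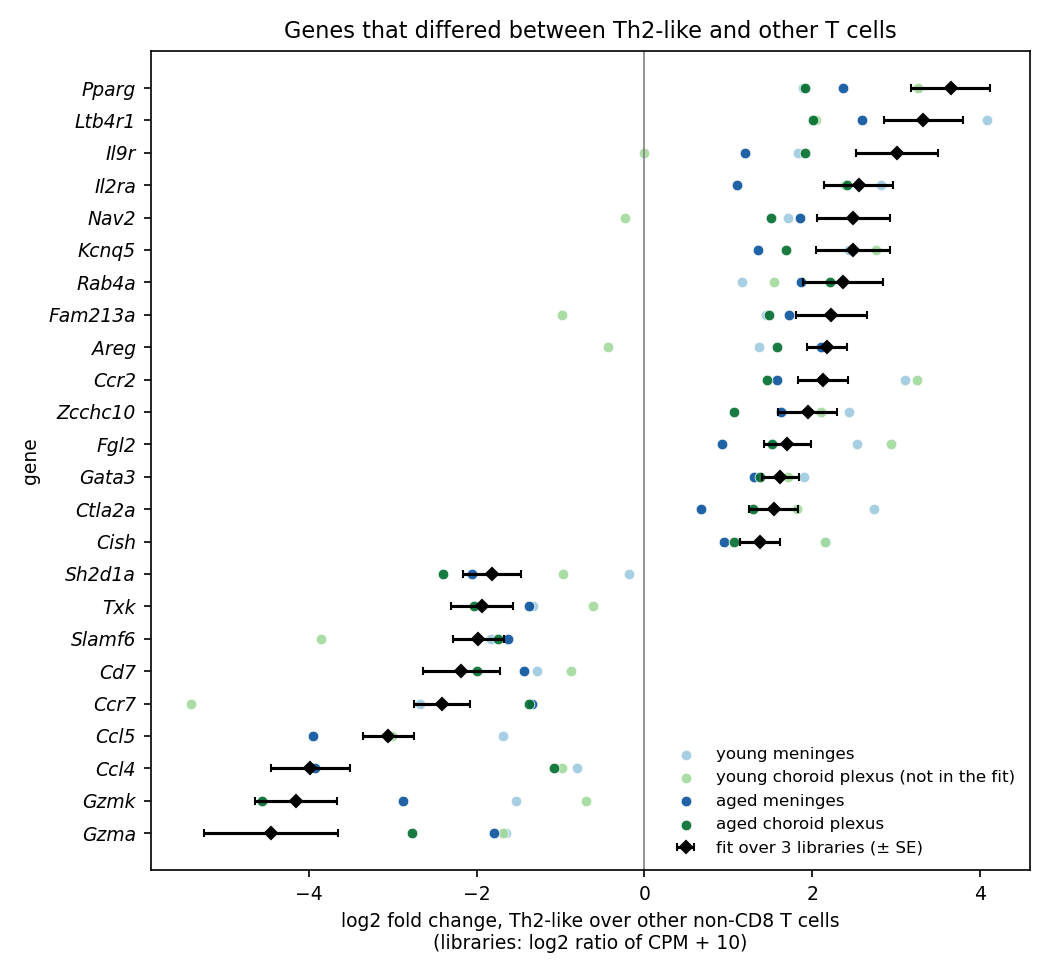
Log2 fold change of Th2-like over other non-CD8 T cells (horizontal axis) for named genes that passed the test (vertical axis). Diamonds with bars are the fit over 3 libraries ± SE, and coloured points are the log2 ratio of CPM + 10 in each library, young choroid plexus being outside the fit. Pparg has the highest fitted value at 3.65 and Gzma the lowest at -4.45.

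The number of calls rested on few libraries. Without young meninges the test called 79 genes higher and 62 lower, without aged choroid plexus 6 and 8, and without aged meninges 7 and 6. Of 27 named genes that passed, 6 passed in every fit that left out a library and tested the gene. Among them, Ccr2, Ccl5, Ccr7 and Gzmk were tested in 3 such fits and Ccl4 in only 2. In other non-CD8 T cells Ccl4 had 996 UMIs in aged meninges, against 52 in young meninges and 10 in aged choroid plexus. Other non-CD8 T cells had fewer UMIs per cell, with medians of 3017.5, 2826, 2095.5 and 2432. After thinning to 1000 UMIs, Ccr2, Ccr7, Gata3, Ltb4r1, Fgl2, Ctla2a and Cish were among the genes that lost the call, and Gzmk lost it under DESeq2. The lowest log2 fold change over all alternatives was 1.70 for Ccr2, 1.38 for Gata3 and 2.71 for Ltb4r1. Gata3 lost its call without aged choroid plexus, and Areg and Ltb4r1 without aged meninges, with log2 fold changes of 1.65, 2.13 and 3.57 that were close to the reported ones. With Il1rl1-positive cells only, which left the 2 aged libraries with enough cells, 70 genes were higher and 39 lower, and all 24 genes higher before were among the 70 and 10 of the 13 lower genes among the 39. Gata3 then had a log2 fold change of 1.55, Ccr2 1.84 and Pparg 3.85, and each passed.

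The other non-CD8 cells include naive cells, so Th2-like cells were also compared with the 491 of them that carried a Cxcr3 UMI, a marker of Th1-like effector cells. Gata3, Ccr2, Ltb4r1 and Areg were again higher, and Ccl5 and Gzmk again lower. By the same edgeR test over 3204 genes, with Benjamini-Hochberg adjustment, 84 genes were higher (2.62%) and 41 lower (1.28%). Of the 84, 33 encoded ribosomal proteins, with a median log2 fold change of 0.33. Gata3 was at 38.7, 78.2, 72.6 and 66.4 CPM in Cxcr3-positive cells, below all 4 Th2-like values (log2 fold change 1.76 ± 0.25, adjusted p = 2.9e-05). Ccr2 was at 69.6, 67.0, 65.0 and 53.7 CPM in them, again with no overlap (1.89 ± 0.25, adjusted p = 5.4e-06). Both passed in all fits that left out a library.

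Ltb4r1 was at 3.87, 0, 18.1 and 3.16 CPM in Cxcr3-positive cells and had the largest named log2 fold change, 4.13 ± 0.39 (adjusted p = 1.83e-08). Areg followed with 2.99 ± 0.28 (adjusted p = 1.29e-08). Il2ra and Tnfrsf4, the costimulatory receptor OX40, rose among 4 tested type 2 receptor genes. Of 7 tested regulatory genes Il2ra and Capg rose and Tigit fell, with a median of 0.40. Of 10 tested immediate early genes 4 rose (Fos, Zfp36, Ier2 and Jund), and Fos had a log2 fold change of 1.72 (adjusted p = 1.69e-06). Of 14 tested residency genes Ccr2 rose and Rgs1, Itgb1, Lgals3 and Anxa2 fell. The last 3 encode an integrin chain, a galectin and an annexin.

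Nkg7 was at 445, 377, 52.8 and 96.7 CPM in Th2-like cells and at 676, 575, 868 and 759 CPM in Cxcr3-positive cells. It fell with a log2 fold change of -2.19 ± 0.30 (adjusted p = 1.2e-05). Both young Th2-like values were nearer to those of the comparator than the aged ones. Ccl5 had a log2 fold change of -3.21 ± 0.13 (adjusted p = 1.1e-17) and Gzmk of -4.23. Of 5 tested Th1 and cytotoxic genes 3 fell, and since Cxcr3, itself a Th1 gene, chose the comparator, this count is given as a description. With Il1rl1-positive members only, in the aged libraries, 89 genes were higher and 55 lower, of which 64 and 29 were among the 84 and the 41. The comparators overlap, so shared calls are no second test: 19 genes were higher in both comparisons, 79.2% of the first list and 22.6% of the second, and 6 were lower in both, 46.2% and 14.6%.

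Regulatory T cells of tissues can also carry GATA3 and ST2, so the third comparator was the 216 T cells with a Foxp3 UMI and none of Cd8a, Cd8b1, Klrb1c or Zbtb16, whether or not they had a type 2 UMI. Over 2303 genes the edgeR test with Benjamini-Hochberg adjustment called 19 higher (0.825%) and 34 lower (1.48%) in Th2-like cells. Gata3 did not separate the classes (log2 fold change 0.47 ± 0.25, adjusted p = 0.486), nor did Areg (0.13) or Il2ra (0.04). These p-values do not show that the levels were alike. Cxcr6 was at 56.8, 125, 168 and 119 CPM in Foxp3-positive cells, below every Th2-like value, and rose in Th2-like cells (1.88 ± 0.38, adjusted p = 0.00794). Ccr2 rose too (1.29 ± 0.28, adjusted p = 0.0151), and Cd40lg, the helper ligand for B cells and myeloid cells, rose by 1.78.

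Of 7 tested regulatory genes 3 fell in this comparison, Ctla4 (-1.88), Ikzf2 (-1.91) and Tigit (-1.96), and none rose. Since Foxp3, itself a regulatory gene, chose the comparator, this count is given as a description. Tnfrsf4 fell by 1.60 on the log2 scale. Cd74, the chaperone of MHC class II, was at 23.4, 0, 75.4 and 24.2 CPM in Th2-like cells and at 114, 0, 1002 and 875 CPM in Foxp3-positive cells (-4.05 ± 0.31, adjusted p = 1.23e-07). Penk, which encodes the opioid precursor proenkephalin, was at 0, 0, 15.1 and 38.7 CPM against 146, 0, 153 and 378 CPM (-3.37 ± 0.39, adjusted p = 5.74e-05). Foxp3 itself was excluded by the rule. The number of calls fell without the members that lack Il1rl1, although the fold change of Ltb4r1 did not. In the 2 aged libraries alone 135 genes were higher and 98 lower with all members. With Il1rl1-positive members only, in the same libraries, edgeR called 0 genes higher and 1 lower, Cd74 (-4.23, adjusted p = 0.0319), of 2584 tested, with 178 and 148 at an unadjusted p under 0.05. Ltb4r1 then had a log2 fold change of 3.03, Ccr2 of 1.21, Tigit of -1.88, Cd27 of -2.28 and Cxcr6 of 0.94. The adjusted p of these 5 genes in that edgeR fit lay between 0.0865 and 0.365. With all members Ltb4r1 had 2.69 in the same 2 libraries. The fit with all members that also held young meninges gave 2.27, 1.29, -1.96, -1.89 and 1.88 for the 5 genes. In it the log2 ratio of Cxcr6 was 4.18 in young meninges, 0.41 in aged meninges and 1.35 in aged choroid plexus.

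The study compared ages. Within a tissue each age had 1 library, so a rule of size was applied. A gene passed if the library with the higher level held 20 UMIs of it or more and the log2 ratio of CPM + 10 was at least 1. In meninges 65 of 791 genes were higher in aged Th2-like cells (8.22%) and 34 lower (4.3%), and in choroid plexus 190 of 870 were higher (21.8%) and 7 lower (0.805%). The young choroid plexus library held 7 cells, so that a single UMI there was worth 31.4 CPM. The minimum of 20 UMIs stood for 628 CPM there and for 96.7 CPM in aged choroid plexus, and 186 and 1250 genes reached it. Genes could therefore pass as higher in aged choroid plexus far more easily than as lower, and these counts cannot be set against each other. In meninges the minimum stood for 234 CPM in the young and 151 CPM in the aged library. Among the genes considered, the median log2 ratio of aged over young was 0.05 in meninges and 0.48 in choroid plexus. In both tissues 9 genes were higher and 2 lower.

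Over both tissues together the ages were tested with edgeR's quasi-likelihood test with tissue as a block, which left 1 residual degree of freedom and was chosen after the data were seen. Of 1567 genes it called 24 higher (1.53%) and 11 lower (0.702%) in aged Th2-like cells at an adjusted p under 0.05, and 12 of the 24 encoded ribosomal proteins. Among the higher genes were Il7r (log2 fold change 2.59, adjusted p = 3.45e-05), Ikzf2 (4.03, adjusted p = 0.000674), Tnfrsf4, Capg, Izumo1r and Cdk11b. Among the lower genes were Ly6c2 (-5.19, adjusted p = 7.58e-10), Cxcr6 (-1.75, adjusted p = 0.000758), Xcl1 and Nkg7. Senp6 and Arid4a did not pass. The ages also differ in which rule gene chose the cells. With Il1rl1-positive members only, which left 8 and 2 young cells, 1 gene was called higher (Rpl39) and 1 lower (Gm42418) of 851. Il7r then had a log2 fold change of 2.05 (adjusted p = 0.0684) and Cxcr6 of -1.68 (adjusted p = 0.129).

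Il7r, the IL-7 receptor chain that sustains memory T cells, was at 176 CPM in meningeal cells of young mice and 912 CPM in those of aged mice, and at 94.2 and 691 CPM in choroid plexus. In other non-CD8 T cells it was at 870 and 754 CPM, and at 762 and 795 CPM. The young Th2-like cells were thus low in Il7r and the aged ones close to the other cells (log2 ratios of 2.31 and 2.75, against -0.21 and 0.06 in other cells), and the class by age term of edgeR was 2.81 ± 0.37 (adjusted p = 3.61e-11). Ikzf2, a transcription factor of regulatory and activated T cells, was at 23.4 and 324 CPM in meninges and at 0 and 135 CPM in choroid plexus. Other cells had 31.7 and 168, and 19.6 and 170 CPM, so Ikzf2 was higher in the aged library in them as well.

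Tnfrsf4 was at 93.6 and 483 CPM in Th2-like cells of young and aged meninges, and at 0 and 247 CPM in choroid plexus. Capg, an actin-capping gene, was at 164 and 460 CPM, and at 0 and 387 CPM. Both genes were higher in the aged libraries in other non-CD8 T cells too, with log2 ratios of 1.74 and 2.92 for Tnfrsf4 and 2.05 and 2.04 for Capg in meninges and choroid plexus. Izumo1r, the folate receptor 4 of regulatory and anergic cells, was at 35.1 and 256 CPM, and at 0 and 116 CPM. Zero UMIs in young choroid plexus have an upper bound of 116 CPM, which lay below the aged values of Tnfrsf4 and Capg and level with that of Izumo1r. Cdk11b, Senp6 and Arid4a were the other 3 named genes higher in both tissues.

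The 2 genes lower in both tissues were Ly6c2 and Cxcr6. Ly6c2 was at 1182 and 7.54 CPM in meninges, young before aged, and at 1476 and 58.0 CPM in choroid plexus (log2 ratios of -6.09 and -4.45), whereas in other cells its ratios were -0.13 and 0.01. Cxcr6 was at 1205 and 226 CPM, and at 691 and 319 CPM (-2.36 and -1.09), and in other cells it was higher in the aged libraries (1.03 and 1.16). Among Il1rl1-positive cells Ly6c2 had no UMI in either young library, so its difference came from cells without Il1rl1. In Il1rl1-positive cells of meninges Cxcr6 stood at 902 CPM (young) and 199 CPM (aged), which passed the rule of size. In those of choroid plexus it was at 567 CPM (208 to 1235 CPM, 6 UMIs in 2 cells) and 304 CPM, which did not pass. Il7r passed in Il1rl1-positive cells of both tissues, at 248.8 and 1007 CPM in meninges and at 189 and 772 CPM in choroid plexus. The value of 189 CPM rested on 2 UMIs in 1 of 2 cells, with an interval of 22.9 to 683 CPM, which reached above the lower bound of 641 CPM of the aged value.

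**Figure D5:**
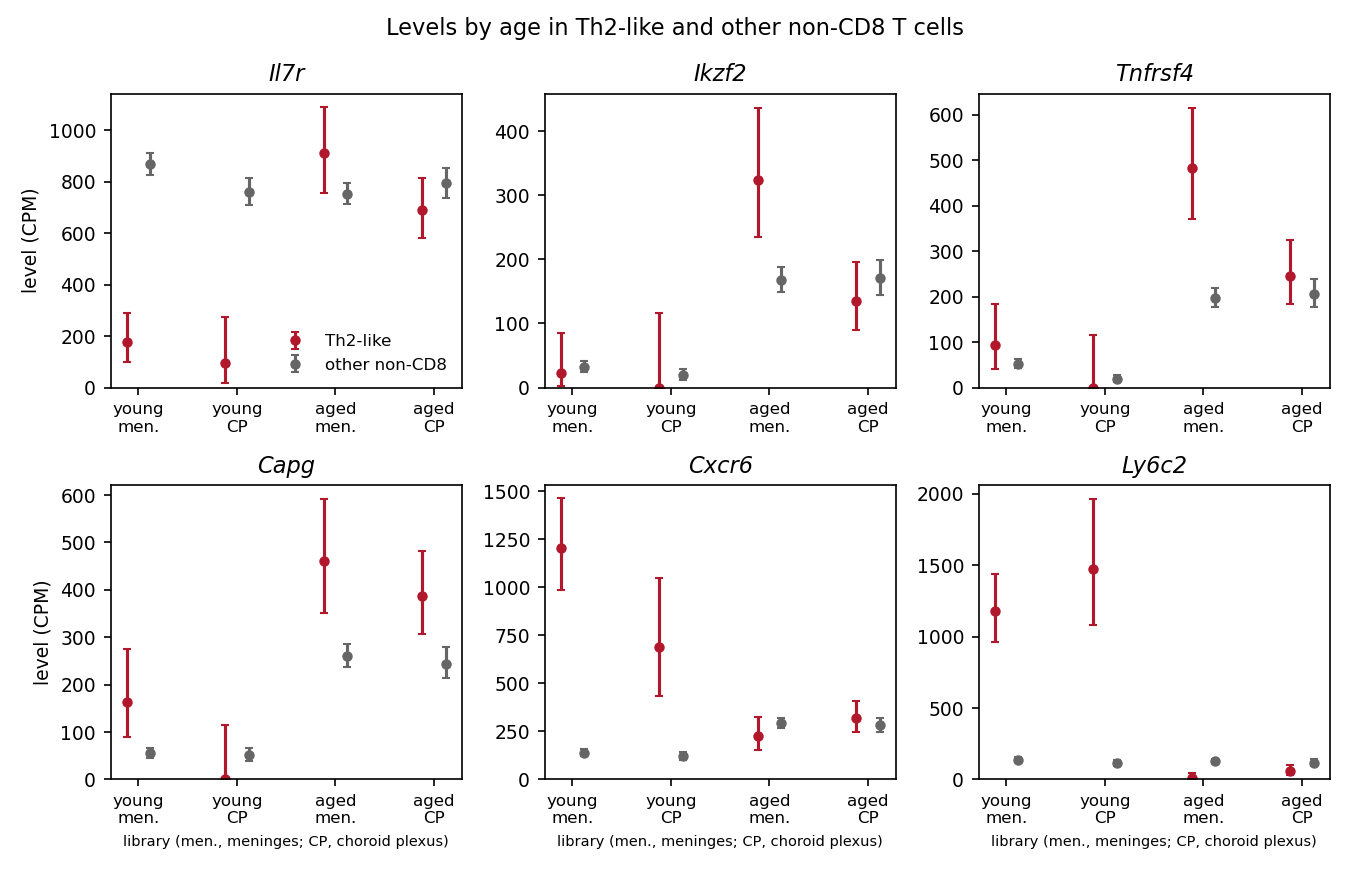
Level in CPM (vertical axes, from 0) of 6 genes in Th2-like (red) and other non-CD8 T cells (grey) of each library (horizontal axes), with 95% exact Poisson intervals. Il7r in Th2-like cells stands at 176 and 94.2 in the young libraries and at 912 and 691 in the aged ones, whereas Ly6c2 and Cxcr6 stand highest in the young ones.

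Some differences were found in the meninges. Areg was at 35.1 and 950 CPM in young and aged meningeal Th2-like cells (log2 ratio 4.41), and it was at 7.53 and 213 CPM in other cells. In aged meninges 17 of 32 Il1rl1-positive cells had an Areg UMI, and 3 of 12 cells with a cytokine and no Il1rl1. In choroid plexus Areg was at 0 and 62.8 CPM, too few UMIs for the rule of size. Of 8 immediate early genes considered in meninges 6 were higher in the aged library (Jun, Zfp36, Jund, Fos, Nr4a1 and Dusp1), with a median log2 ratio of 1.69, beside 0.05 over all genes considered. Zfp36 was at 281 and 1229 CPM, and in other cells at 212 and 358 CPM. All 4 haemoglobin genes passed as higher in aged meningeal Th2-like cells, from 674 UMIs in 3 of 44 cells, whereas in other meningeal cells their sum was lower in the aged library (78.7 CPM) than in the young one (399.7 CPM). The part of free RNA in these differences was not tested.

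Aged over young differences in Th2-like cells were set beside those of the other non-CD8 T cells. Of the 65 genes higher in aged meninges 49 had a ratio of the same sign in other cells and 19 passed a log2 ratio of 1 there (75.4 and 29.2%), while of all 791 genes considered 64.1% had a ratio above 0 and 6.45% passed in other cells. Of the 190 genes higher in aged choroid plexus these numbers were 145 and 19 (76.3 and 10.0%), beside 68.5 and 4.94% of all 870. Of the 34 genes lower in aged meninges 12 had the same sign in other cells and 2 passed, and of the 7 lower in choroid plexus 2 and 0, beside 35.9 and 31.5% of all genes considered with a ratio below 0 in other cells. The Th2 transcription factor list had 3 members with enough UMIs in each tissue, of which Bhlhe40 was higher in aged meninges and none was higher in choroid plexus. Gata3 was at 152 and 204 CPM in meninges and at 157 and 222 CPM in choroid plexus, differences below the rule of size.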

How the data were processed

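Sorted T cells of 4 libraries were profiled with a 10x Genomics 5′ kit. The deposited files hold raw counts of UMIs for 31053 genes in each cell; the authors ran Cell Ranger, for which the file header gives version 3.1.0, and the submitters' processing notes name Cell Ranger 5.1.0, STAR and mm10. No normalization had been applied. Young meninges and choroid plexus held 1111 and 718 cells with 3737140 and 2295950 UMIs, and the same tissues of aged mice 1695 and 1277 cells with 4262917 and 3957717 UMIs.

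The filters named in the report were applied. Per the methods of the study doublets were removed with DoubletFinder; its calls were not used here, and doublets were left in; an alternative removed Scrublet calls (16, 22, 0 and 5 T cells, 1, 1, 0 and 0 of them Th2-like), which in the aged libraries were too few to show that the caller worked. UMIs were summed per library and class. Classes were compared with edgeR 4.0.16 (R 4.3.3), glmQLFit and glmQLFTest, TMM scaling, filterByExpr, and library as block, without the genes of the rule; 2 residual degrees of freedom remained per gene. The replicates are the libraries, which differ in age and tissue, so p-values measure whether a class difference recurred across them. The fit was tested on simulated data first. CPM are summed UMIs per 1000000, and age ratios add 10 CPM.

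The members and gene lists were chosen with earlier results of these data known. Genes were named from the lists, and from the 15 highest and 10 lowest log2 fold changes among called genes of the same sign in every library of the fit (8 and 8 for age, past the rule of size in both tissues), without T cell receptor, immunoglobulin, mitochondrial, ribosomal protein and unnamed genes; for the Foxp3 comparison genes came from the lists and the called genes. Some genes are not reported here. Alternatives were DESeq2 1.42.0, no block, no low-count filter, a minimum of 10 UMIs, another pseudocount, thinning, other mitochondrial limits, narrower rules, and leaving out each library. The fits over all 4 libraries, that without block against Cxcr3-positive cells, those with Il1rl1-positive members, the alternatives against Foxp3-positive cells and the tests of age, with tissue as block or as a class by age term, were chosen after seeing the data. Coordinates are from GENCODE on GRCm38 (mm10). Analyses used Python 3.11.15, numpy 2.4.6, scipy 1.17.1, pandas 2.3.3, anndata 0.12.19, scanpy 1.11.5 and matplotlib 3.10.9.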

Additional observations from a re-analysis of the deposited data

Results flagged for a closer look

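Of 105 genes of the lists with at least 20 UMIs in Th2-like cells, 4 had a log2 ratio of Th2-like over other non-CD8 T cells of at least 0.5 in one direction in both young libraries and in the opposite direction in both aged libraries. The difference between the ages was tested over 5622 genes with edgeR, with library as block and a class by age term, which left 2 residual degrees of freedom and was chosen after the data were seen. For 83 genes (1.48%), 52 of them for ribosomal proteins, the ratio of Th2-like over other cells was higher in the aged than in the young libraries, and for 27 (0.48%) it was lower, among them Ccr2, Ltb4r1 and Ccl5. The 4 genes were among them, with log2 differences of -4.71 ± 0.43 for Ly6c2 (adjusted p = 8.02e-24), -4.30 ± 0.43 for Nkg7 (adjusted p = 5.43e-20), -2.49 ± 0.52 for Cxcr3 (adjusted p = 0.000284) and 2.88 ± 0.56 for Ly6c1 (adjusted p = 5.91e-05). With so few degrees of freedom these p-values rest on a spread estimated over all genes. The mean log2 ratio of the aged libraries minus that of the young ones was -5.21 for Ly6c2, -4.53 for Nkg7 and -2.65 for Cxcr3, which were higher than in other cells in the young libraries and lower in the aged ones. It was 2.81 for Ly6c1, which went the other way, at 129 and 31.4 CPM in young and 136 and 77.4 CPM in aged Th2-like cells, against 212, 203, 36.3 and 36.5 CPM in other cells. Ly6c2, Nkg7 and Cxcr3 were also the genes found in young cells with a cytokine and no Il1rl1, and no UMI of Ly6c2 or Cxcr3 was found in the 8 and 2 Il1rl1-positive cells of the young libraries. Ly6c1 and Ly6c2 are near-identical genes, so how counting divides their reads is uncertain.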

How the results depend on the processing

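Shares, for meninges and choroid plexus of young and then of aged mice, were 1.24, 0.460, 3.11 and 5.95% after thinning to 1000 UMIs, and 1.29, 0.525, 4.26 and 9.90% for Il1rl1-positive members only. With at least 2 gate UMIs, meaning UMIs of the 5 type 2 genes, they were 1.46, 1.05, 2.39 and 4.70%. The libraries kept their order in these. With 2 gate UMIs the intervals of aged meninges (1.42 to 3.76%) and aged choroid plexus (2.85 to 7.25%) overlapped. Genes higher and lower against other non-CD8 T cells numbered 41 and 40 with all 4 libraries, 70 and 39 for Il1rl1-positive members, 47 and 32 without Ccr7-positive comparator cells, 50 and 66 with no filter on low counts, and 1 and 1 after thinning, where 2617 genes were tested. DESeq2 called 19 higher and 5 lower, and 2 gate UMIs gave 36 and 34. Without the library block edgeR called 0 and 0, with 166 and 200 at an unadjusted p under 0.05. Leaving out 1 library gave 6 to 79 higher and 6 to 62 lower. Against Cxcr3-positive cells DESeq2 called 42 and 10, the fit with no library block 13 and 8, thinning 11 and 11, and no filter 62 and 64. Leaving out 1 library gave 20 to 75 higher and 13 to 44 lower. Aged over young, higher and lower, were 214 and 148 in meninges and 503 and 27 in choroid plexus at a minimum of 10 UMIs, 30 and 6 and 51 and 1 after thinning, and 35 and 11 and 65 and 3 with 2 gate UMIs. Il1rl1-positive members gave 8 lower in meninges and 1 in choroid plexus, and Il7r, Ikzf2 and Tnfrsf4 were among the genes higher in both tissues. In the comparisons of classes no named gene that passed changed sign. Between the ages, Cdk11b in choroid plexus had a log2 ratio of 1.37 with all members. With Il1rl1-positive members it was -0.18, from too few UMIs for the rule of size. Of 362 values of 32 genes against other cells, 264 kept their side of the threshold, 96 lost the call and 2 gained it, and of 293 values of 31 genes against Cxcr3-positive cells 258 kept it and 35 lost it. Gata3 ranged from 1.38 to 1.71 (adjusted p up to 0.295 by edgeR or DESeq2) and Ccr2 from 1.70 to 2.47 (up to 0.199). Against Foxp3-positive cells DESeq2 called 3 higher and 8 lower, Il1rl1-positive members gave 0 and 1, and leaving out 1 library gave 15 to 135 higher and 29 to 98 lower, while of 157 values of 34 genes 110 kept their side, 46 lost the call and 1 gained it. That comparison was run under no other alternative. Classes were blocked by library and ages by tissue. By replicate number no paired analysis was possible because each condition had 1 library. With 7 to 55 members a library, genes of few UMIs could not be compared between ages.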

Other observations

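T cell receptor V genes were counted by the V gene with most UMIs in a cell. Trbv13-2 led in 8 of 22 Th2-like cells of young meninges and in 13 of 45 of aged choroid plexus with a Trbv UMI. In other non-CD8 T cells of these libraries it led in 12.04% and 16.2%. In aged meninges the leading gene was Trbv1, in 5 of 38 cells, and in young choroid plexus Trbv13-1, in 3 of 7. In young meninges 7 of the 11 cells with a cytokine and no Il1rl1 had a Trbv13-2 UMI, against 2 of the 8 Il1rl1-positive cells, and 1 of the 11 had Trav11, the alpha chain V gene of invariant natural killer T cells. Gamma-delta receptor constant genes had UMIs in 0, 1, 5 and 4 Th2-like cells, for meninges and choroid plexus of young and then of aged mice. In aged mice these were 11.4% (3.79 to 24.6%) and 7.27% (2.02 to 17.6%), against 2.12% (1.19 to 3.47%) and 2.29% (0.995 to 4.47%) of other non-CD8 T cells.

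Ccl1, a chemokine of activated Th2 and mast cells, was at 293 CPM in Th2-like cells of young meninges, from 25 UMIs, and at 0, 15.1 and 4.83 CPM in the other libraries. In other non-CD8 T cells Ccl1 was at 36.0, 0, 1.21 and 2.21 CPM. The genes Il17a, Il17f, Il23r, Ccr6 and Il22 of type 17 T cells had no UMI in any Th2-like cell.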
